A study of Mus musculus with 2 samples.

Results

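The genes described here encode the proteasome, the protease complex that degrades ubiquitin-tagged proteins, together with its dedicated activators, inhibitor and assembly chaperones. They were taken by symbol from the deposited tables of TPM, a length-scaled transcript level that sums to the same total in each library: every symbol made of Psm, a letter from a to g and a number. This gave 48 of 25668 genes. Of these, 5 (Psmb8, Psmb9, Psmb10, Psme1 and Psme2) are called immune genes here because interferon gamma is known to raise them, and the other 43 are mostly constitutive. Psme2b, Psmc3ip and Psme3ip1 have longer symbols and were left out.

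RNA came from organoids of mouse fallopian tube (oviduct) epithelium, 1 library from control organoids and 1 from organoids in which Trp53, the gene of the tumour suppressor p53, had been knocked out. The control organoids are labelled WT and came from a mouse of B6J.129(B6N) background that carries the allele Gt(ROSA)26Sortm1(CAG-cas9*,-EGFP)Fezh, a transgene for the Cas9 nuclease and EGFP. The knockout organoids are labelled Trp53 KO, and both libraries carry conditioned medium as their treatment label. No source used here gives the age of the animals or says whether the knockout is 1 clone or a pool. Each group has 1 library, so the genotypes could not be tested against each other, and every difference below compares these 2 libraries only.

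The core of the proteasome, the 20S particle, is a barrel of alpha-subunit and beta-subunit rings, and 3 of its beta subunits, the products of Psmb5, Psmb6 and Psmb7, cut the peptide chain. In cells exposed to interferon, and in leukocytes, the products of Psmb8, Psmb9 and Psmb10 are built in instead of Psmb5, Psmb6 and Psmb7, which changes the peptides that are made and later shown on class I molecules of the major histocompatibility complex (MHC). The 19S cap binds and unfolds ubiquitin-tagged proteins, and PA28, made of the products of Psme1 and Psme2, is another cap that opens the core.

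Trp53 itself stood at 83.2 TPM in control organoids and 2.42 TPM in knockout organoids. Reads estimated from the TPM values and transcript lengths summed to 100099420 for control organoids and 27688213 for knockout organoids, so values of the knockout library carry the larger counting error. The epithelial genes Epcam (713 and 697 TPM), Krt8 (1984 and 1554 TPM), Krt18 (3144 and 2317 TPM) and Cdh1 (243 and 212 TPM) were high in both libraries, and Pax8, of secretory cells, was 44.8 and 46.0 TPM. Differences are given as log2(TPM + 1) in the knockout library minus the control library, and a gene is counted as higher or lower at a 2-fold difference on this scale, among the 11228 genes with a mean of at least 1 TPM. Of all these genes 8.35% were higher and 15.3% lower, and their median difference was −0.17. The median over 7 oviduct epithelium markers was −0.35, with 0 higher and 2 lower: Ovgp1, the oviductal glycoprotein of secretory cells (7.44 TPM in control and 0.192 TPM in knockout organoids), and Foxj1, a factor of ciliated cells (116 and 52.7 TPM). Their part in the differences of the proteasome genes was not tested. Ratios are of TPM, with 95% exact Clopper-Pearson intervals from the estimated reads. These intervals hold counting error alone: reads lacking molecular identifiers are not independent molecules, and nothing measures the spread between cultures.

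Of the 48 proteasome genes 46 passed the filter of 1 TPM, 2 were higher, 1 was lower and 43 were neither. The higher genes were Psma7 and Psmb7, both on chromosome 2, and the lower gene was the immune subunit gene Psmb8. These counts lie below the background of 8.35% and 15.3% in both directions. The 2 genes that did not pass are subunits of other tissues. Psma8, the alpha subunit of spermatogenic cells, was listed at 0 TPM in both libraries, where 3 reads would have been 0.0298 TPM in control organoids and 0.1002 TPM in knockout organoids. Psmb11, the catalytic subunit of thymic cortical epithelium, stood at 0.00701 TPM in the control library, an estimated 2 reads, and was listed at 0 in the knockout library, where 3 reads would have been 0.0399 TPM. Foxn1, a transcription factor used as a marker of thymic epithelium, was 0.178 TPM in control and 3.89 TPM in knockout organoids. Prss16, another marker used for thymic epithelium, was 5.23 and 8.62 TPM. Together the 48 genes took 1.06% of the TPM of control organoids and 1.28% of that of knockout organoids.

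**Figure D1:**
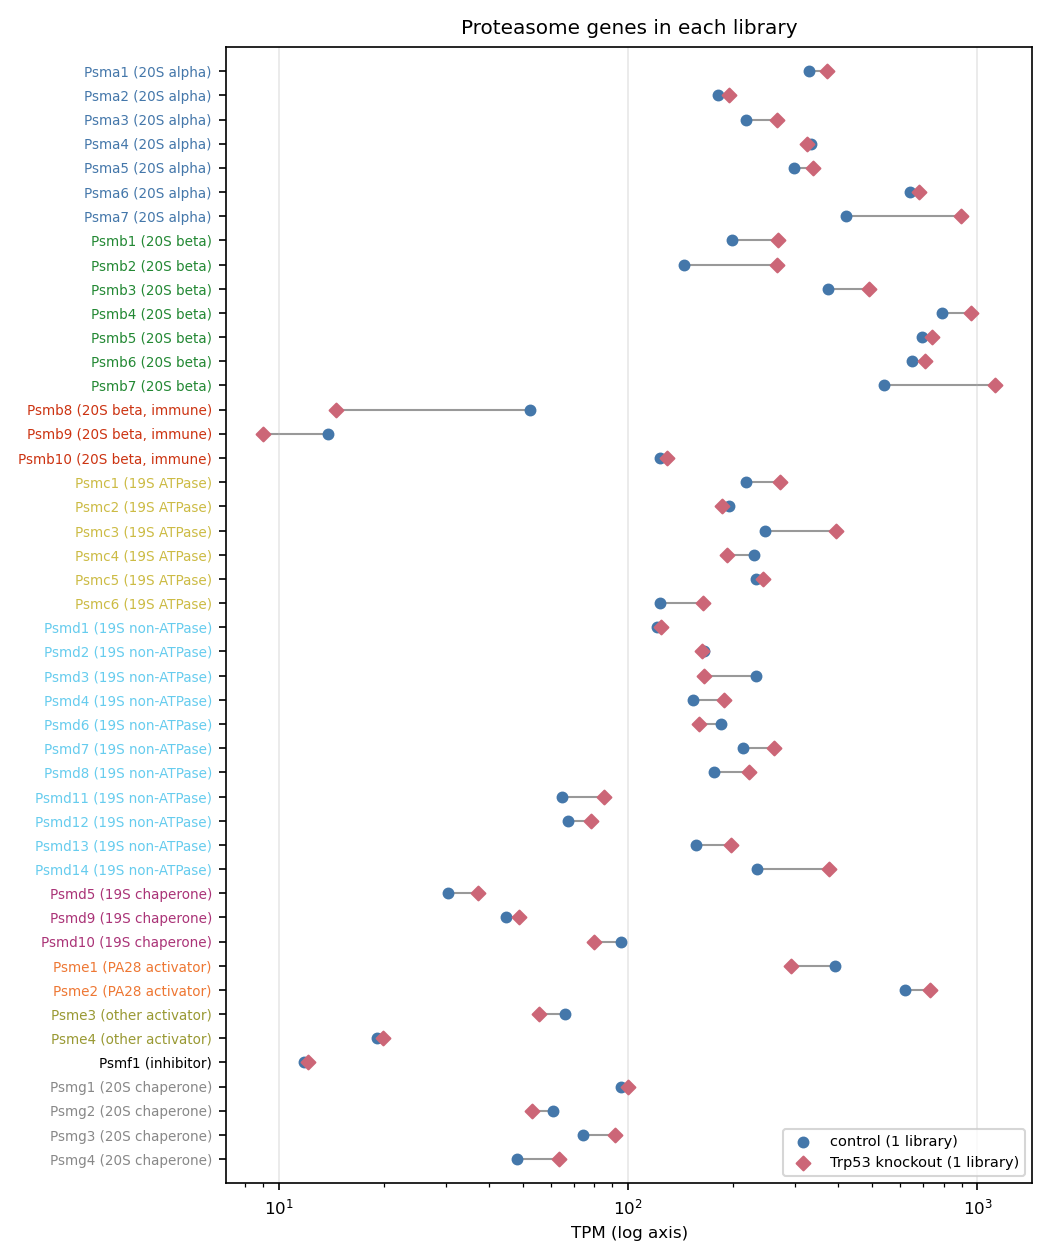
Level of the 46 proteasome genes that passed the filter, in TPM on a log axis, with 1 point for the control library and 1 for the Trp53 knockout library, joined by a line and grouped by role in the complex. Psmb8 stands at 52.4 and 14.6 TPM, the knockout points of Psma7 and Psmb7 lie well to the right of their control points, and most other pairs of points lie close together.

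Psmb8, which replaces Psmb5 as the chymotrypsin-like subunit of the immunoproteasome, was the gene that differed most. It stood at 52.4 TPM in control organoids and 14.6 TPM in knockout organoids, a difference of −1.77. The level in the control library was 3.59-fold that in the knockout library (counting interval 3.25 to 3.98, from an estimated 5074 and 420 reads). Psmb5 in the same libraries was 692 and 743 TPM, a ratio of 1.07 (1.05 to 1.10). In this pair the larger difference was in the immune gene. Psmb9, which replaces Psmb6, was the lowest of the immune genes in both libraries, at 13.8 and 9.01 TPM. Its ratio of 0.652 (0.559 to 0.753) did not reach 2-fold, and Psmb6 was 651 and 709.7 TPM.

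Psmb10, which replaces the trypsin-like subunit Psmb7, was nearly equal in both libraries. It was 123 TPM in control organoids and 129 TPM in knockout organoids, a ratio of 1.05 (1.004 to 1.09), and it was the most abundant of the 3 immune catalytic genes in each library. Psmb7 was 539 and 1125 TPM, a ratio of 2.09 (2.05 to 2.12). Its difference of 1.06 came to 0.97, just under 2-fold, after quantile normalization. In this pair the larger difference was in the constitutive gene.

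The share of an immune gene within its pair does not depend on how the libraries were scaled to each other by a common factor. Psmb8 made up 7.04% (6.85 to 7.23) of the TPM of Psmb8 and Psmb5 in the control library and 1.93% (1.75 to 2.12) in the knockout library. Psmb9 made up 2.08% (1.96 to 2.20) of the TPM of Psmb9 and Psmb6 in the control and 1.25% (1.09 to 1.43) in the knockout library. Psmb10 made up 18.6% (18.3 to 18.96) of the TPM of Psmb10 and Psmb7 in the control and 10.3% (9.94 to 10.7) in the knockout library. The share was lower in the knockout library in all 3 pairs. With TPM as deposited, the immune gene was lower in the first 2 pairs and nearly equal in the third, and the partner was higher in all 3. Unlike the shares, these directions depend on the scaling: after quantile normalization the differences of Psmb5 and Psmb6 were −0.06 and −0.02. Summed over the pairs, the immune catalytic genes were 189.6 TPM beside 1882 TPM of their partners in the control library, or 9.15%, and 153 beside 2578 TPM in the knockout library, or 5.59%. Most of the difference in the partner sum was Psmb7 of chromosome 2, at 539 and 1125 TPM. Constitutive transcripts thus outnumbered immune transcripts in both libraries.

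**Figure D2:**
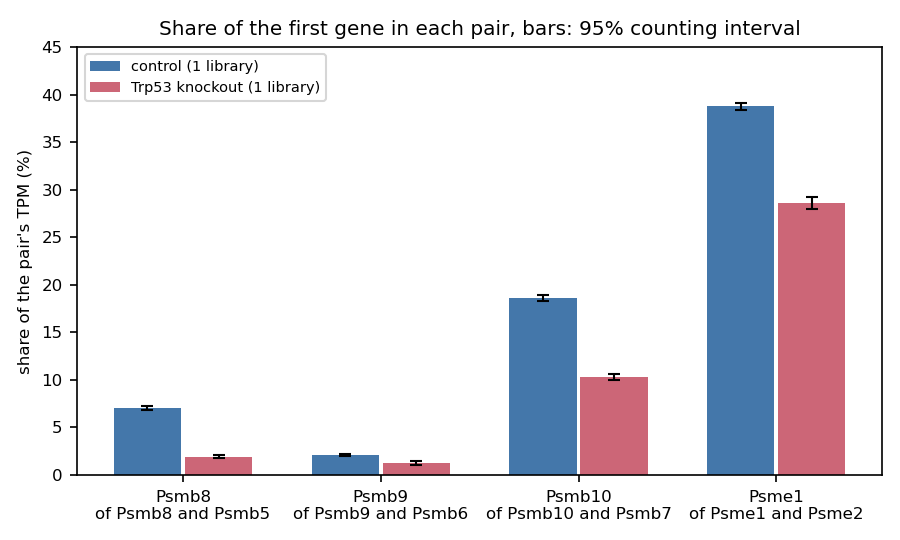
Share of the first gene in the summed TPM of each pair, in percent, for the control library and the Trp53 knockout library, with 95% counting intervals as error bars. The share is lower in the knockout library in each pair, at 1.93%, 1.25%, 10.3% and 28.6% against 7.04%, 2.08%, 18.6% and 38.8%.

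Psme1 and Psme2, whose products alternate in the PA28 ring, differed in opposite directions. Psme1 was 392 TPM in control organoids and 292 TPM in knockout organoids, a ratio of 0.745 (0.724 to 0.766). Psme2 was 619.7 and 729 TPM, a ratio of 1.18 (1.15 to 1.20). Neither reached 2-fold. Psme1 was 38.8% (38.4 to 39.1) of the summed TPM of both genes in the control library and 28.6% (27.95 to 29.2) in the knockout library. Psme2b, a near copy whose reads could be shared with Psme2, was at 0.321 and 0.473 TPM. The sum of Psme1 and Psme2 was 1012 TPM in control organoids and 1021 TPM in knockout organoids. These levels lay well above those of the immune catalytic genes.

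Over the 5 immune genes the median difference was −0.42, beside a median of −0.17 over all genes. Of the 5, 1 was lower and 0 higher, beside 15.3% and 8.35% of all genes. Their differences ranged from −1.77 for Psmb8 to 0.23 for Psme2. Above 0 lay 2 and below 0 lay 3, beside 39.9% of all genes above 0. Some genes used as markers of leukocytes, which use immune subunits, also differed between the libraries. Of 10 markers 3 passed the filter: Lyz2 (257 TPM in the control and listed at 0 in the knockout library, where 3 reads would have been 0.129 TPM), Cd68 (25.5 and 15.97 TPM) and Csf1r (8.78 and 0.420 TPM). Their list summed to 291 TPM in control organoids and 16.4 TPM in knockout organoids. The pan-leukocyte gene Ptprc was at 0.0886 and 0.0110 TPM, and Cd3e and Cd79a, of T and B cells, were listed at 0 in both. For these a level of 3 reads would have been 0.0345 and 0.0346 TPM in control and 0.116 TPM each in knockout organoids. Adgre1, Itgam and Itgax of the same list were at 0.0363, 0.0136 and 0.00775 TPM in the control library. They reached at most 0.0456 TPM in the knockout library. Which cells made the Lyz2, Cd68 and Csf1r transcripts was not tested. In bulk RNA, fewer cells of a type and less RNA per cell cannot be told apart. Fibroblast markers reached at most 0.0307 TPM and endothelial markers 0.0679 TPM in either library. The part of these marker differences in the Psmb8 difference was not tested.

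Psmb9, Tap1, Psmb8 and Tap2 follow one another in this order among the protein-coding genes of chromosome 17, inside the MHC. Tap1 and Tap2 encode the transporter that carries proteasome-made peptides into the endoplasmic reticulum. Tap1 was 10.5 TPM in control organoids and 7.16 TPM in knockout organoids, a ratio of 0.680 (0.607 to 0.760), close to that of its neighbour Psmb9 at 0.652. Tap2 was 24.3 and 7.72 TPM, a ratio of 0.318 (0.288 to 0.349), beside 0.279 (0.252 to 0.308) for its neighbour Psmb8. All 4 genes were below 1 in ratio, and 2 of them, Psmb8 and Tap2, passed 2-fold. Of all genes 39.9% lay above 0, and 15.3% were at least 2-fold lower. On chromosome 17 the median difference was −0.22, and 16.6% of 553 genes were at least 2-fold lower.

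RefSeq promoter windows were matched by symbol for 40 of the 48 genes, all 5 immune genes among them. The 250 bases before the gene start are printed for the immune genes of the first 2 catalytic pairs, whose own ratio lay below 1, and for their constitutive partners, as the gene's own strand from 5′ to 3′. Capitals mark matches on either strand to 4 motifs: the interferon-stimulated response element (ISRE, GAAANNGAAA), the gamma-activated site of STAT factors (GAS, TTCNNNGAA), the antioxidant response element bound by Nrf factors (ARE, TGANNNNGC) and the CCAAT box.
Psmb8: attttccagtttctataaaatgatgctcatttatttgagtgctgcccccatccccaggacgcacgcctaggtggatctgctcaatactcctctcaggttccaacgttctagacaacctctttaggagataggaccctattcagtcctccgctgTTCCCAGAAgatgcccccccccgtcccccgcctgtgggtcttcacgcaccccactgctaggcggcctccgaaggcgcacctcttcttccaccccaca
Psmb5: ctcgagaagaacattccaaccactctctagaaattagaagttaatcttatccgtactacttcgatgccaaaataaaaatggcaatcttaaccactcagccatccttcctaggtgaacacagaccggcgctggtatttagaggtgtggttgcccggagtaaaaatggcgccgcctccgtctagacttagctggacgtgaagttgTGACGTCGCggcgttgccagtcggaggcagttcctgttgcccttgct
Psmb9: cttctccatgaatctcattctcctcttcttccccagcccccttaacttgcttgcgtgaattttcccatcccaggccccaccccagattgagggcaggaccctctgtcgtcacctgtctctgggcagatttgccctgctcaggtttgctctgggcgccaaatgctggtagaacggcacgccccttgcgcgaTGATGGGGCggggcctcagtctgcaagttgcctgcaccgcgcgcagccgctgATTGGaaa
Psmb6: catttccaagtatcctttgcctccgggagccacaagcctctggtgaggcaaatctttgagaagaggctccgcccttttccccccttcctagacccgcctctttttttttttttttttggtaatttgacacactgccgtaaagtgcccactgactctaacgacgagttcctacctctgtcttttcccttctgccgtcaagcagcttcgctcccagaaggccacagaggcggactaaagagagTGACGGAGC
In GRCm38.p6, the build of the RefSeq table, these windows are chr17:34197945-34198194 on the plus strand (Psmb8), chr14:54617996-54618245 on the minus strand (Psmb5), chr17:34187331-34187580 on the minus strand (Psmb9) and chr11:70525107-70525356 on the plus strand (Psmb6). The window of Psmb8 holds 1 GAS match, that of Psmb9 holds 1 ARE and 1 CCAAT match, and those of Psmb5 and Psmb6 hold 1 ARE match each. No 2 of the matches printed overlap. A GAS match stood in 7.02% of 32851 promoter windows of this length, an ARE match in 35.2%, a CCAAT match in 33.8% and an ISRE match in 2.98%. Of 37 windows of the other proteasome genes 15 held an ARE match, 13 a CCAAT match, 3 an ISRE match and 1 a GAS match. Of 6 windows of the immune genes 2, 1, 0 and 1 did. A match is a description of letters and says nothing of whether a factor binds there.

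Apart from Psma7, Psmb7 and Psmb2, the constitutive 20S core differed by less than 1.5-fold between the libraries. Its 14 genes, Psma1 to Psma7 and Psmb1 to Psmb7, had a median difference of 0.23 beside −0.17 for all genes. Of the 14, 13 lay above 0 with TPM as deposited (39.9% of all genes). After rescaling by the median ratio 14 did, with a median of all genes of −0.008. After quantile normalization 10 did, with a median of all genes of 0.034, and Psmb5, Psmb6 and Psma6 also lay below 0. The summed level was 5812 TPM in control organoids and 7632 TPM in knockout organoids.

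In the alpha ring, which gates the barrel, Psma7 was 419 TPM in control organoids and 894 TPM in knockout organoids, a ratio of 2.13 (2.09 to 2.17). No other alpha gene exceeded a ratio of 1.23. Psma3 was 217 and 267 TPM (ratio 1.23), Psma5 298 and 339 TPM (1.14), and Psma1 329 and 372 TPM (1.13). Psma2 was 181 and 194 TPM, Psma6 641 and 682 TPM, and Psma4 334 and 324 TPM, ratios of 1.07, 1.06 and 0.970. The Psma4 interval of 0.943 to 0.996 lay wholly below 1 with TPM as deposited, while its difference was above 0 after rescaling by the median ratio.

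In the beta ring the highest ratio was that of Psmb7, given above, followed by Psmb2. Psmb2, a non-catalytic subunit, was 144 TPM in control organoids and 267 TPM in knockout organoids, a ratio of 1.85 (1.78 to 1.92). Its difference of 0.88 passed 2-fold after rescaling by the median ratio, at 1.06. Psmb1 was 199 and 268 TPM (ratio 1.35), Psmb3 374 and 488 TPM (1.30), and Psmb4 794 and 960.5 TPM (1.21). All 3 are structural. The 2 other catalytic genes, Psmb5 and Psmb6, had the smallest ratios of the constitutive beta ring, at 1.07 and 1.09.

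Although each ring of the core holds 1 copy of each of its subunits, the transcript levels per length were unequal. Among the 14 core genes of the control library the levels ran from 144 TPM for Psmb2 to 794 TPM for Psmb4, a 5.51-fold span with a coefficient of variation of 51.1% across genes. In the knockout library they ran from 194 TPM for Psma2 to 1125 TPM for Psmb7, a 5.80-fold span with a coefficient of variation of 55.6%. The order of the genes was similar in both libraries, with a Spearman correlation of 0.895 across the 14 genes, which are not independent and share their libraries. Over all 46 genes that passed the filter it was 0.958.

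The 17 genes of 19S cap subunits named Psmc or Psmd were more even among themselves than the core genes. Their coefficient of variation was 32.2% in control and 42.3% in knockout organoids. The cap subunit genes Sem1 (538 and 566 TPM) and Adrm1 (116 and 152 TPM) have other symbols and are not among the 17. Sem1 lay above all 17 in both libraries, so this evenness holds for the 17 only and not for the whole cap. The 6 ATPase genes, whose products unfold the substrate, ran from 124 TPM (Psmc6) to 246 TPM (Psmc3) in the control library, and from 164 TPM (Psmc6) to 395 TPM (Psmc3) in the knockout library. Psmc3 had the highest ratio of them at 1.61 (1.57 to 1.64), and Psmc6 and Psmc1 followed at 1.33 and 1.25. Psmc4 had the lowest ratio of the ATPase genes, at 229.6 TPM in control organoids and 192 TPM in knockout organoids, a ratio of 0.837 (0.811 to 0.864). Psmc5 and Psmc2 were near 1, at 1.05 and 0.955, and Psmc2 turned positive after rescaling by the median ratio.

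Of the 11 non-ATPase subunits counted here, Psmd14, the deubiquitinase of the lid, was 233 TPM in control organoids and 376 TPM in knockout organoids, a ratio of 1.61 (1.57 to 1.65). Psmd3, a lid subunit, showed the opposite, at 232 and 165 TPM, a ratio of 0.710 (0.691 to 0.730). Psmd6, another lid subunit, was 184 and 159 TPM, a ratio of 0.865. Psmd4, the ubiquitin receptor Rpn10, was 154 and 189 TPM (ratio 1.23). The largest base subunits, Psmd1 and Psmd2, were 121 and 165 TPM in control organoids and 125 and 163 TPM in knockout organoids, ratios of 1.03 and 0.988. Psmd11, Psmd13, Psmd8, Psmd7 and Psmd12 had ratios from 1.16 to 1.32. Over the 17 cap genes named Psmc or Psmd 0 were higher and 0 lower, beside 8.35% and 15.3% of all genes. Of the 17, 12 lay above 0, beside 39.9% of all genes, and the median difference was 0.29, beside −0.17. The Spearman correlation between the libraries was 0.784 across these 17 genes.

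Assembly chaperones showed small ratios in both directions. Among the chaperones of the 20S core, Psmg4 was 48.1 TPM in control organoids and 63.4 TPM in knockout organoids, a ratio of 1.32 (1.20 to 1.45), and Psmg3 was 74.3 and 91.4 TPM (1.23). Psmg1 was 95.3 and 100.1 TPM (1.05), and its partner Psmg2 was 60.7 and 53.0 TPM (0.873). Among those of the 19S base, Psmd5 was 30.5 and 37.1 TPM (1.22), Psmd9 44.6 and 48.8 TPM (1.09), and Psmd10, known as gankyrin, 95.2 and 79.6 TPM (0.836). Of these 7 chaperone genes 0 were higher and 0 lower, beside 8.35% and 15.3% of all genes.

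The other activators and the inhibitor stood well below PA28 in level. Psme3, the PA28 gamma subunit of the nucleus, was 65.8 TPM in control organoids and 55.7 TPM in knockout organoids, a ratio of 0.847 (0.811 to 0.884). Psme4, the activator PA200, was 19.1 and 19.8 TPM, with an interval of 0.990 to 1.09 that includes 1. Psmf1, the inhibitor PI31, was 11.8 and 12.1 TPM, with an interval of 0.946 to 1.11. Summed, Psme1 and Psme2 stood 11.9-fold above Psme3 and Psme4 in the control library and 13.5-fold above them in the knockout library.

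**Figure D3:**
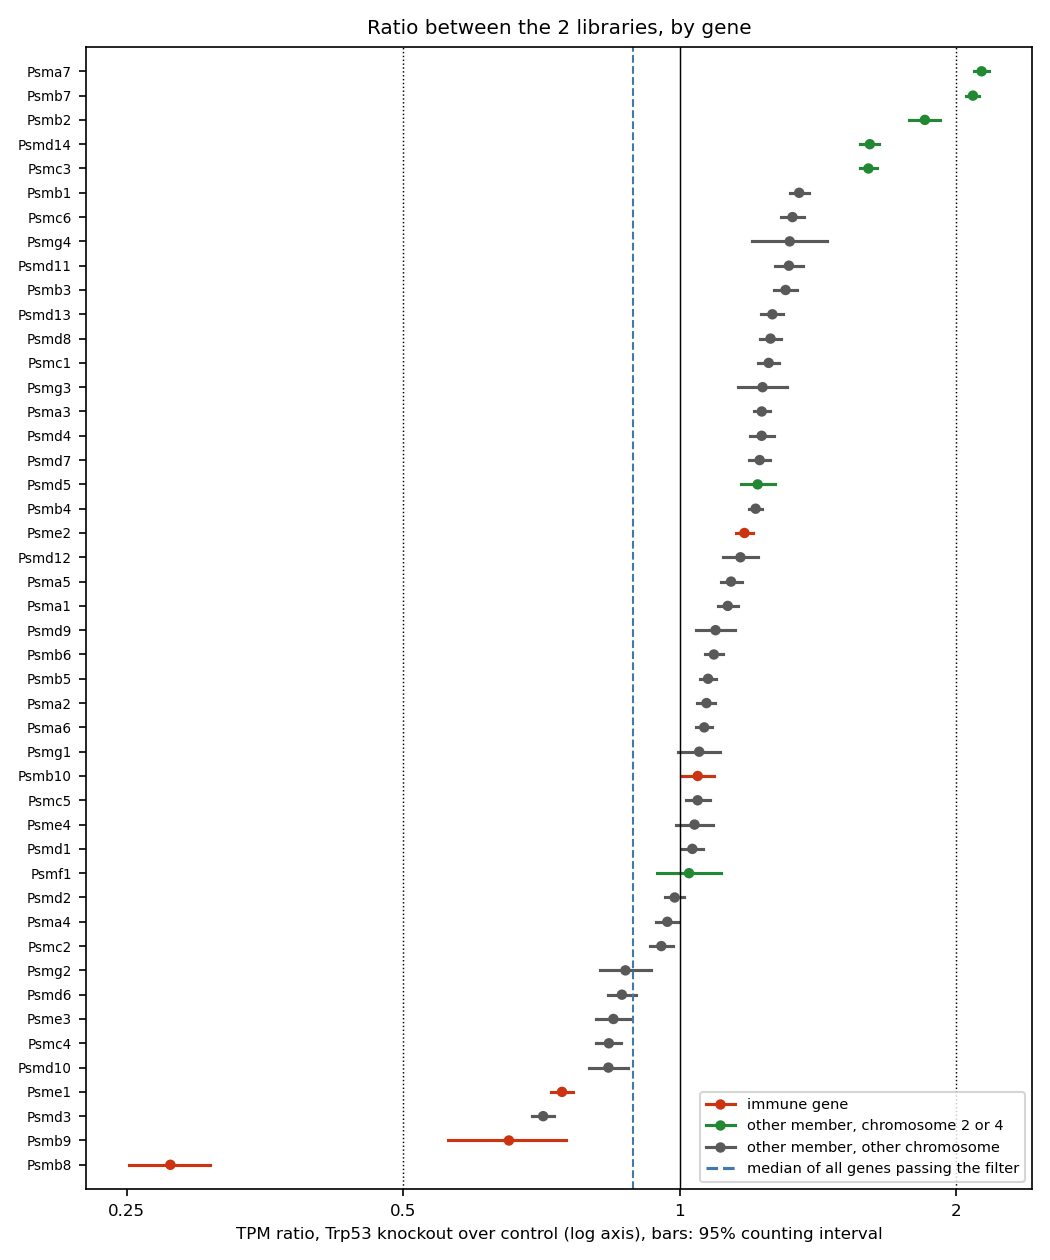
TPM ratio of the knockout library over the control library for 46 proteasome genes, on a log axis with 95% counting intervals, in order of the ratio. The solid line is 1, dotted lines are 0.5 and 2, and the dashed line is the median of all genes on the log2(TPM + 1) scale. Psma7 and Psmb7 lie beyond 2 and Psmb8 below 0.5, and the 5 highest ratios, from 1.61 to 2.13, belong to genes of chromosomes 2 and 4.

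Taking all 43 genes other than the immune 5, 41 passed the filter, 2 were higher and 0 lower, beside 8.35% and 15.3% of all genes. Their median difference was 0.19, which is 0.35 above that of all genes. Of the 41, 32 lay above 0, beside 39.9% of all genes. That count was 35 after rescaling by the median ratio and 29 after quantile normalization. The 39.9% holds only for TPM as deposited, since the median of all genes was −0.008 and 0.034 after these rescalings. The extremes were −0.49 for Psmd3 and 1.09 for Psma7. At a lower threshold of 1.5-fold, 5 of the 46 genes were higher (Psma7, Psmb7, Psmb2, Psmd14 and Psmc3) and 1 lower (Psmb8), beside 15.9% and 27.8% of all genes. The difference was nearly unrelated to the level in the control library, with a Spearman correlation of 0.17 across the 41 genes.

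All 5 genes that were at least 1.5-fold higher lie on chromosome 2 or 4. Genes of these chromosomes were higher in the knockout library as a whole: the median difference was 0.20 over 899 genes of chromosome 2 and 0.62 over 680 genes of chromosome 4, and from −0.36 to −0.14 on the other 18 chromosomes. Chromosome 2 carries Psma7, Psmb7, Psmd14, Psmc3, Psmd5 and Psmf1, with differences of 1.09, 1.06, 0.69, 0.68, 0.27 and 0.03, and chromosome 4 carries Psmb2 with 0.88. The 7 genes had a median of 0.69, and the other 34 had a median of 0.13 with 0 higher and 0 lower. Measured against the median of its own chromosome, each of 37 of the 41 genes lay above it, the exceptions being Psmf1, Psmc4, Psmd3 and Psme3. By definition the genes of a chromosome split evenly about its median. The median excess was 0.48 for the 7 genes on chromosomes 2 and 4 and 0.38 for the 34 on other chromosomes. What sets these chromosomes apart was not tested. None of the 5 immune genes lies on chromosome 2 or 4.

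**Figure D4:**
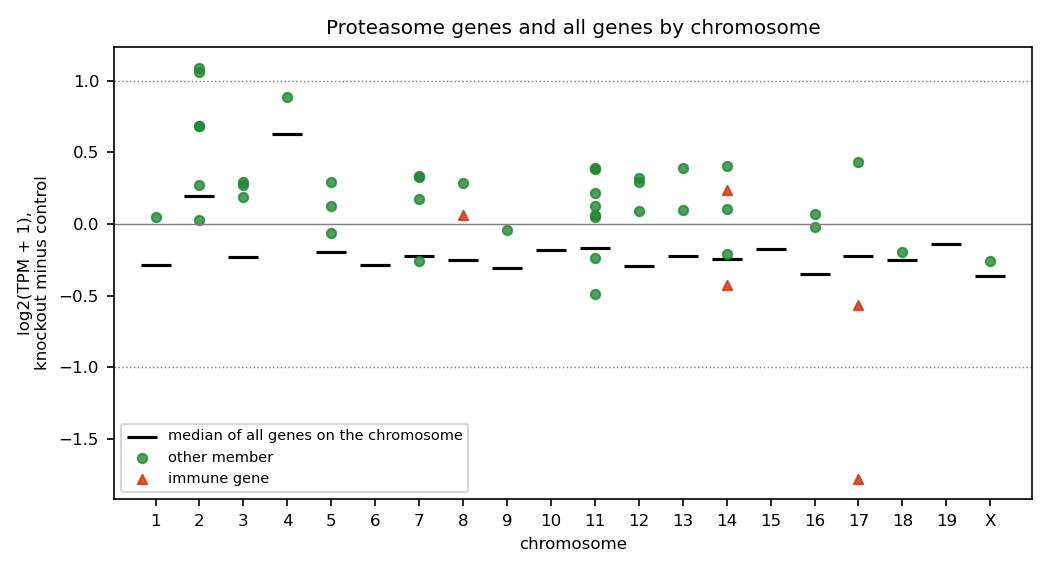
Difference in log2(TPM + 1), knockout minus control, of each proteasome gene by chromosome (points, with triangles for the immune genes), with a bar for the median of all genes on that chromosome and dotted lines at 2-fold. Chromosomes 2 and 4 have medians of 0.20 and 0.62 and carry the 5 highest members, and most other members lie above their chromosome's bar.

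Genes that work with the proteasome were taken from 7 further lists, to be read beside the 8.35% of all genes that were higher and the 15.3% that were lower. Of 6 other components and assembly factors found (of 7 listed) 1 was higher, Akirin2, which brings proteasomes into the nucleus, at 33.98 TPM in control organoids and 101 TPM in knockout organoids. It also lies on chromosome 4. Of 14 proteasome-bound deubiquitinases, ligases and shuttles 1 was higher, the shuttle Rad23b on chromosome 4, at 46.5 and 106 TPM. Of 6 ubiquitin and E1 enzyme genes 0 were higher and 0 lower, and of 10 genes of the Nrf1 route, by which cells restore proteasome gene expression, 0 were higher and 0 lower. In the Nrf1 list Ddi2, the protease that activates Nrf1, was 1.88 and 4.47 TPM, a ratio of 2.38 but a difference of 0.93, and it passed 2-fold with a pseudocount of 0.1, after either rescaling and after removal of the highest genes. Ddi2, which is also in the list of shuttles and lies on chromosome 4, was singled out after its values were seen. The medians of these 4 lists were 0.34, −0.18, 0.01 and −0.10, beside −0.17 for all genes. Rad23b and Akirin2 had ratios of 2.27 and 2.99, both above that of any proteasome gene.

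Downstream of the proteasome, 1 of 6 cytosolic peptidase genes was higher and 1 lower. Lap3, leucine aminopeptidase, was 172 TPM in control organoids and 59.0 TPM in knockout organoids, and Blmh, bleomycin hydrolase, was 49.6 and 104 TPM, just under 2-fold with a pseudocount of 5. Of 14 genes of class I peptide loading that passed the filter (of 15), 3 were lower and 2 higher, beside 15.3% and 8.35% of all genes, and the median was −0.40, beside −0.17. Tap2, described above, and H2-M3, a class I molecule for formylated peptides at 13.7 and 1.14 TPM, were lower. The third was Tapbp, tapasin, at 171 and 80.4 TPM, chosen after its values were seen, which did not reach 2-fold after rescaling by the median ratio. H2-K1, a classical class I gene, was higher at 203 and 514 TPM, as was the nonclassical H2-T23 at 50.3 and 126 TPM. B2m, the common light chain, was 243 and 388 TPM and lies on chromosome 2. Class I genes share sequence, so their single values are uncertain.

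Of 17 genes of the interferon gamma pathway that passed the filter (of 22), 2 were lower and 4 higher, beside 15.3% and 8.35% of all genes, and the median was 0.10. With a pseudocount of 5 only Jak2 was lower and only Irf9 higher, and among the 12 genes with a mean of at least 5 TPM the median was −0.32. Jak2, a kinase that binds cytokine receptors, was 56.0 TPM in control organoids and 17.2 TPM in knockout organoids, and Gbp2, a guanylate-binding protein, was 12.2 and 4.52 TPM, less than 2-fold lower after quantile normalization. Irf9 and Stat2, which act together after type I interferon, were 7.47 and 1.87 TPM in control organoids and 22.8 and 5.48 TPM in knockout organoids. Irf9 is the second protein-coding gene after Psme2 on chromosome 14. The other 2 higher genes, chosen after their values were seen, were Jak1 on chromosome 4 (12.9 and 27.6 TPM) and Socs1 (1.52 and 4.30 TPM). Irf1, a factor known to act on the immune subunit genes, was 30.2 and 35.4 TPM, a ratio of 1.17 (1.10 to 1.25). Nlrc5, the class I transactivator, was near 0 in both libraries, at 0.0617 and 0.00693 TPM from an estimated 28 reads and 1 read.

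**Figure D5:**
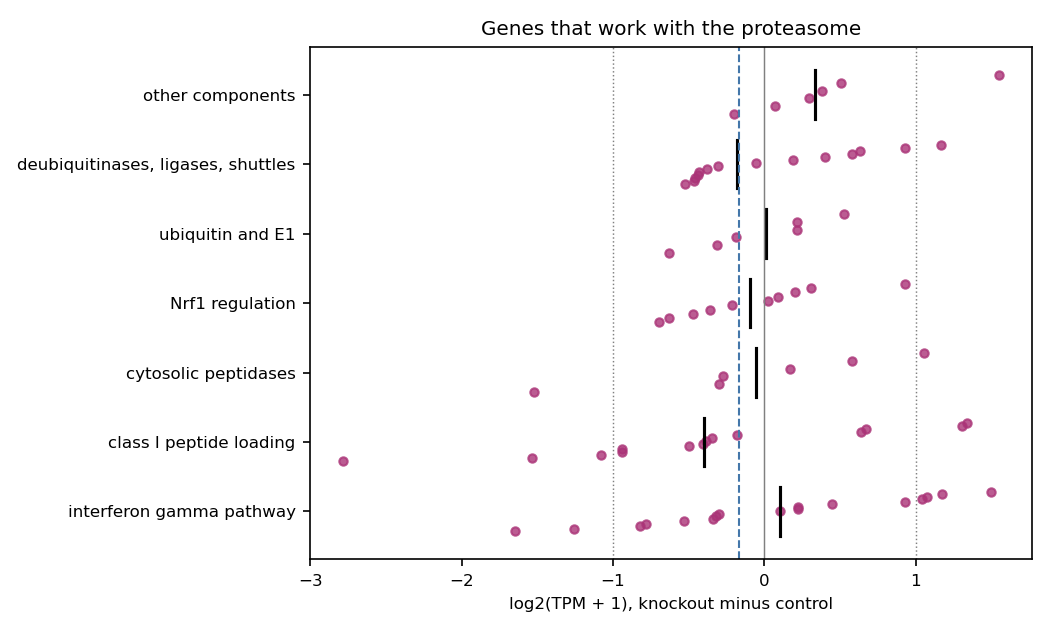
Difference in log2(TPM + 1), knockout minus control, of the genes of 7 lists that work with the proteasome (1 point per gene with a mean of at least 1 TPM), with a black bar at each list's median, a dashed line at the median of all genes (−0.17) and dotted lines at 2-fold. Class I peptide loading has the lowest median, −0.40, and points beyond 2-fold on both sides.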

How the data were processed

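The authors deposited TPM for 25668 gene symbols in each of 2 libraries. RNA was extracted from cultured organoids with an RNeasy Plus kit and strand-preserving paired-end libraries were made, per the labels' protocols. Per the submitters' processing notes the reads were placed on GRCm39. For aligner, counter and annotation, not given in the sources used here, nothing is assumed, and how reads shared with pseudogenes were assigned is unknown.

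Members, lists and thresholds were chosen with earlier results of these data known. Differences used a pseudocount of 1 TPM and a filter of a mean of at least 1 TPM. The pseudocount makes differences of low genes smaller than the TPM ratio. Reads were estimated as TPM times the longest protein-coding transcript in GENCODE M21, divided by the value of 1 read, which at 1000 bases was 0.0168 TPM for control and 0.0565 TPM for knockout organoids. Of 46 members with over 50 reads in both libraries, 19 came out whole within 0.02 reads in both, and of all such genes 30.9%. The others are estimates that assume this length. For a gene listed at 0 the level of 3 reads is given.

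Named genes are Trp53, every member, up to 4 genes past 2-fold per list, and Tap1, Tap2, B2m, Irf1 and Nlrc5; 1 further gene the rule names is not reported here. The alternatives were pseudocounts of 0.1 and 5, no filter and a mean of 5 TPM, median ratio and quantile scaling, removal of mitochondrially encoded and the 100 highest genes, a 1.5-fold threshold and leaving out members on chromosomes 2 and 4. Motifs were searched in RefSeq promoter windows of GRCm38.p6, and chromosomes came from the RefSeq table of the same build. Python 3.11.15, pandas 2.3.3, NumPy 2.4.6 and SciPy 1.17.1 were used.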

Additional observations from a re-analysis of the deposited data

How the results depend on the processing

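Psmb8 was the 1 gene at least 2-fold lower under every alternative run. The count of higher genes was 2, but 3 after median ratio scaling (with Psmb2), 1 after quantile normalization (Psma7 alone), 5 at 1.5-fold and 0 without members on chromosomes 2 and 4. Median ratio scaling moved the median of all genes by 0.16 and quantile normalization by 0.20. Relative to all genes, the median of the non-immune members was 0.35 as reported, 0.37 and 0.18. The unadjusted medians were 0.36 (median ratio scaling) and 0.13 (without chromosomes 2 and 4) for the non-immune members, and −0.25 (median ratio scaling) and −0.34 (quantile normalization) for the immune genes, which stayed 0.24 and 0.37 below all genes. Median ratio scaling turned the sign of Psmc2, Psma4 and Psmd2, and removal of the highest genes that of Psmd2. Quantile normalization turned the sign of Psmb6, Psma6 and Psmb5. Applied to the named genes of the other lists after the data were examined, the same alternatives turned the direction of 0 calls, but a pseudocount of 5 ended the calls of Blmh (0.999), Jak1 (0.87), Stat2 (0.61), Socs1 (0.51) and Gbp2 (−0.85), quantile normalization that of Gbp2 (−0.995) and median ratio scaling that of Tapbp (−0.91). Ddi2 of the Nrf1 list was called higher under 4 alternatives and at 1.5-fold, where Nfe2l1 and Ngly1 of that list were called lower. With a pseudocount of 0.1 the class I list had 5 lower genes, and with a pseudocount of 5 the interferon gamma list had 1 higher and 1 lower. With a filter of a mean of 5 TPM the interferon gamma list had 2 higher, Jak1 and Irf9, and 2 lower. Stat2 and Socs1 did not pass that filter. After quantile normalization the shares of Psmb8, Psmb9 and Psmb10 in their pairs were 6.47%, 1.84% and 18.2% in the control and 2.18%, 1.44% and 11.04% in the knockout library. Counted in reads not divided by length they were 12.1%, 3.47% and 20.5%, and 3.43%, 2.10% and 11.5%. The share was lower in the knockout library each time. No paired analysis was possible because each group has 1 library. Depth limits Psmb9 most among the immune genes, with an estimated 215 reads in the knockout library.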
